A study of Rattus norvegicus with 22 samples.

Results

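Proximal straight tubule (PST) cells are the epithelial cells of the late, straight part of the proximal tubule. They were taken here as every nucleus that the authors named PST in their single-nucleus RNA-Seq (snRNA-Seq) annotation of rat kidney, in all treatments. They numbered 60833 of 310282 nuclei (19.6%), beside 95279 nuclei of proximal convoluted tubule (PCT) cells and 16413 of injured proximal tubule (iPT) cells. Of the PST nuclei, 30888 (50.8%) came from 1 of the 22 libraries, and the balance of PST with PCT is therefore given per library.

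The study compared 5 groups of male Sprague-Dawley rats, with whole kidney as the tissue. Control rats were sham operated and kept both kidneys. Per the labels, all other rats had 1 kidney removed, although the methods leave amiloride out of the groups they list as nephrectomized. These rats received deoxycorticosterone acetate (DOCA, a mineralocorticoid) at 50 mg/kg every week by subcutaneous injection, and drank salt water, a model of hypertensive kidney disease. DOCA rats received vehicle by gavage, and the remaining groups received finerenone at 10 mg/kg/d, spironolactone at 50 mg/kg/d or amiloride at 20 mg/kg/d on top of DOCA. Finerenone and spironolactone block the mineralocorticoid receptor, and amiloride blocks the epithelial sodium channel. Nephrectomy, salt and DOCA were given together in this model, so a difference between DOCA and control cannot be assigned to any of these alone. There were 5 samples of control, DOCA, finerenone and spironolactone each and 2 of amiloride. The labels place all control and amiloride samples at 6 weeks, and 1 sample each of DOCA, finerenone and spironolactone at 3 weeks.

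The proximal tubule reabsorbs most of the filtered salt, water, glucose, amino acids and phosphate. Its first, convoluted part in the cortex carries the bulk of this transport. The straight part runs down to the outer stripe of the outer medulla, and is known for secreting organic anions and cations and for its sensitivity to ischemia and toxins. Genes used to recognize PST cells are Slc22a7, an organic anion transporter, and Slc7a13, an amino acid transporter of the late proximal tubule. The names of the nuclei are the authors' own, and the levels of these markers were not analysed here. iPT is the authors' name for proximal tubule cells with an injured state. The share of PST among PST and PCT nuclei is a balance among recovered nuclei. Fewer cells of a type and fewer nuclei recovered from it cannot be told apart.

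The libraries held between 759 and 48403 nuclei. Their names match no sample title, so libraries were grouped by the treatment in the annotation and the 2 time points of a treatment were combined. The names fall into sets by the tags Old and New, whose meaning the sources used here do not give. Names of 11 libraries carry no tag, 5 carry the tag Old and 6 carry the tag New. By treatment, the 11 tagged libraries are as many as the 11 samples whose processing notes name Cell Ranger 6.0.1, which include all 3 samples of 3 weeks, but no name ties a library to a sample. No control library is tagged New and both amiloride libraries are, so for amiloride the treatment and the tag cannot be told apart. In each treatment, 1 library name ends in MO, 5 in all. The methods describe as many samples made with a Multiome kit, which profiles chromatin and RNA of the same nucleus, in place of the 3′ RNA kit, but do not say which. The 10 pairs of MO libraries shared 313 cell barcodes per pair on average. The 136 pairs of other libraries shared 51.6, and the 85 pairs of an MO library with another shared at most 2. In all, 9782 barcode sequences occurred in more than 1 library. Summed over pairs this gave 10166 shared barcodes, at most 3.12% of the smaller library of a pair. In 269 of these cases the barcode belonged to a PST nucleus in both libraries.

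The first question was whether the balance of straight and convoluted tubule nuclei differed between treatments. The PST share of PST and PCT nuclei was lowest in DOCA, with a mean of 21.9% ± 1.65 (SD, n = 5 libraries), and 29.4% ± 9.09 (n = 5) in control. It was 37.9% ± 23.5 (n = 5) with finerenone, 31.0% ± 10.0 (n = 5) with spironolactone and 25.3% ± 8.31 (n = 2) with amiloride. None of the differences exceeded the spread between libraries by the exact permutation test, and the libraries of all pairs of treatments compared overlapped.

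In control, the PST share of PST and PCT nuclei was 18.8%, 25.7%, 26.3%, 33.5% and 42.8% in the 5 libraries. In DOCA it was 20.4%, 20.9%, 21.3%, 22.6% and 24.5%. The DOCA libraries thus lay close together, and 4 of the 5 control libraries lay above all of them, while 1 lay below. The difference of DOCA from control was -7.51 percentage points (exact permutation test over libraries, two-sided, p = 0.103, adjusted p = 0.212 over 4 comparisons). As a ratio, there were 0.281 ± 0.0275 PST nuclei per PCT nucleus in DOCA and 0.438 ± 0.198 in control (mean ± SD, n = 5 libraries each). The smallest p that 5 against 5 libraries can give is 0.00794. These p-values measure the spread between libraries and treat each library as 1 replicate.

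With finerenone, the PST share was 16.7%, 25.5%, 26.9%, 44.5% and 75.7% in the 5 libraries, so 4 lay above all DOCA libraries and 1 below. The difference from DOCA was 15.9 percentage points (exact permutation test, p = 0.159, adjusted p = 0.212). Without the library of 48403 nuclei, which had the 75.7%, the finerenone mean was 28.4% ± 11.7 (n = 4) and the difference 6.45 points (adjusted p = 0.423, exact permutation test). The difference was 9.97 points without the libraries tagged New (adjusted p = 0.171, exact permutation test). It was 21.2 points without the library of 40267 nuclei (adjusted p = 0.0635, exact permutation test). In untagged libraries alone (2 against 3) it was 13.4 points, and in tagged libraries alone (3 against 2) 17.3 points.

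With spironolactone, the PST share was 18.6%, 24.2%, 31.6%, 36.8% and 43.9%, so 3 libraries lay above all DOCA libraries. The difference from DOCA was 9.07 percentage points (exact permutation test, p = 0.111, adjusted p = 0.212). It was 5.85 points without the library of 33683 nuclei, tagged New. In untagged libraries alone (3 against 3) it was 3.17 points, and in tagged libraries alone (2 against 2) 17.9 points. With amiloride the share was 19.4% and 31.1%, on either side of the DOCA range. That difference was 3.34 points (exact permutation test, p = 0.571, adjusted p = 0.571), and 2 against 5 libraries cannot give a p below 0.0952. The drugs were given at different doses and are set side by side without a test between them. All 3 drug comparisons share the DOCA libraries.

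**Figure D1:**
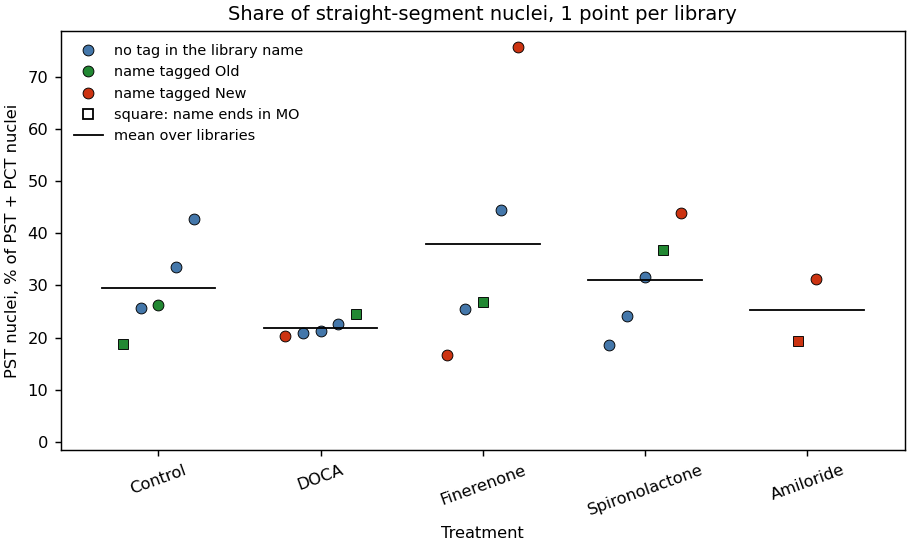
PST nuclei as a percentage of PST and PCT nuclei (y axis) by treatment (x axis), with 1 point per library, colored by the tag in the library name, squares for names ending in MO and lines for the mean over libraries. The 5 DOCA libraries sit between 20.4% and 24.5%, whereas the other treatments with 5 libraries spread wider, up to 75.7% in the finerenone library of 48403 nuclei.

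Pooling the nuclei of a treatment gave another order. The pooled PST share of PST and PCT nuclei was 51.7% with finerenone with the library of 48403 nuclei and 22.2% without it (95% CI 21.7% to 22.6%), beside 21.9% (21.4% to 22.5%) in DOCA. The pooled share was 24.7% in control, 33.9% with spironolactone and 25.7% with amiloride. Over all treatments it was 39.0% with that library and 26.0% without it, or 0.638 and 0.351 PST nuclei per PCT nucleus. The exact (Clopper-Pearson) intervals cover counting error only and do not hold the spread between libraries.

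The library of 48403 nuclei was the only one of the 22 with more PST than PCT nuclei. It held 3.12 PST nuclei per PCT nucleus, and the other 21 libraries held between 0.20 and 0.802. PST made up 63.8% of its nuclei. Among its nuclei that were not PST, PCT made up 56.5%, the highest of the 22 libraries, whose others lay between 16.1% and 47.8%. iPT made up 4.08% of the same nuclei, within the range of the others (3.21% to 13.5%). Its loop of Henle (LOH) cells were 22.8% of the nuclei outside the proximal tubule, also within the range of the other libraries (10.1% to 45.7%). Its podocytes, the cells of the glomerular filter and so a marker of cortex, were 9.27% of those nuclei. The finerenone library of 40267 nuclei and the spironolactone library of 33683 nuclei, both also tagged New, had podocyte shares of 10.3% and 10.7%, while the remaining 19 libraries had at most 3.22%. Each of these 3 large libraries held more nuclei than the methods give as loaded for the 3′ RNA kit. The PST share of PST and PCT nuclei in these 3 was 75.7%, 16.7% and 43.9%, which takes in both the highest and the lowest value of all 22 libraries. The source of these differences was not tested.

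The tag in the library name moved with some of these differences. In untagged libraries (3 against 3), the difference of DOCA from control in the PST share was -12.4 percentage points. In tagged libraries (2 against 2) it was -0.144 points. Of these, both control libraries were tagged Old, and the DOCA libraries were 1 Old and 1 New. The control libraries with the highest shares, 33.5% and 42.8%, were untagged and were the 2 smallest control libraries, with 5312 and 1238 nuclei. Without the latter library the difference was -4.18 points, and in libraries of at least 2000 nuclei it was -4.01 points. An exact permutation test within tagged and within untagged libraries gave p = 0.1 (adjusted p = 0.2) for the difference of -7.51 points over all libraries. Whether the tag or library size caused this result was not tested.

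The share was also taken of all proximal tubule nuclei, with iPT in the denominator. PST then made up 18.4% ± 0.354 (n = 5) of PCT, PST and iPT nuclei in DOCA, with libraries from 18.0% to 18.9%. In control it made up 26.4% ± 7.78 (n = 5), with libraries from 17.0% to 38.3%. The difference was -7.99 points (exact permutation test, p = 0.0476, adjusted p = 0.127), and did not pass the adjusted threshold of 0.05. The DOCA library of 15167 nuclei combined the highest iPT share of proximal tubule nuclei of all libraries, 26.4%, with the highest PST share of PST and PCT nuclei in its group, 24.5%.

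For context, the shares of all 16 cell types in all nuclei were compared in the same way. Between DOCA and control, 2 of the 16 types (12.5%) had libraries that did not overlap, namely lymphocytes and proliferating tubule cells, and PST was not among them. For finerenone against DOCA this was 1 type (6.25%), type A intercalated cells. For amiloride it was 1 type (6.25%), iPT, and for spironolactone it was 0%. No type passed an adjusted p of 0.05 by the exact permutation test in any of the 4 comparisons. The number of libraries limited this. The smallest possible p adjusted to 0.127 for type A intercalated cells with finerenone, and to 0.0635 for lymphocytes and proliferating tubule cells (exact permutation tests). For amiloride no type could pass, as 2 against 5 libraries give no p below 0.0952 (exact permutation test). At an unadjusted p under 0.05 there were 5 types (31.2%) for DOCA against control, 2 (12.5%) for finerenone and 0 for the other two, and PST was not among them. On centred log ratios, a scale on which each type is set against the mean of all types, the unadjusted counts were 6, 2, 0 and 0, and again none passed adjustment. The types without overlap depended on the scale. On centred log ratios, lymphocytes overlapped between DOCA and control, and proliferating tubule cells did not. For amiloride, iPT overlapped and distal convoluted tubule cells did not. The PST share of all nuclei differed by -2.52 points between DOCA and control (p = 0.127, exact permutation test). It differed from DOCA by 13.5 points with finerenone (p = 0.143), by 3.35 points with spironolactone (p = 0.0714) and by 3.43 points with amiloride (p = 0.286, exact permutation tests), with adjusted p over the 16 types of at least 0.226 in all comparisons.

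Across the 22 libraries, the PST share of PST and PCT nuclei was set against 4 other measures of a library. The LOH share of nuclei outside the proximal tubule was examined because LOH cells lie, like PST cells, partly in the outer medulla. Pearson's r was 0.320 (permutation p = 0.147, adjusted p = 0.196) and Spearman's rho was 0.462 (p = 0.031, adjusted p = 0.124, n = 22). Without the 2 libraries farthest from the median LOH share, r was 0.312, and without the library of 48403 nuclei it was 0.525 (permutation p = 0.0146, adjusted p = 0.0584). Within untagged libraries r was 0.647 and within tagged libraries 0.169 (n = 11 each). With the podocyte share, r was 0.406 and rho 0.0141 (permutation adjusted p = 0.196 and 0.954). The value of r was 0.704 without the 2 farthest libraries, 0.0677 without the library of 48403 nuclei, 0.486 within tagged and -0.243 within untagged libraries. The relation thus rested on single libraries.

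With the iPT share of proximal tubule nuclei, r was -0.337 and rho -0.0186 (permutation adjusted p = 0.196 and 0.954). Without the 2 libraries farthest in iPT share r was 0.0396, without the library of 48403 nuclei it was -0.0169, and within tagged and untagged libraries it was -0.417 and -0.0701. With the log10 number of nuclei, r was 0.202 and rho -0.0333 (permutation adjusted p = 0.35 and 0.954). Here r was 0.373 without the 2 farthest libraries, -0.122 without the library of 48403 nuclei, 0.624 within tagged and -0.229 within untagged libraries. None of the 4 relations passed adjustment.

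The second question was where PST nuclei lay on the UMAP, a map in 2 dimensions that places nuclei with like expression near each other, and where they bordered iPT. Its axes have no unit. PST nuclei formed 3 regions along the second axis. A core lay below a UMAP_2 of -8 and held 56109 nuclei (92.2% of PST). A tip lay between -6 and -4, next to iPT, and held 2181 nuclei (3.59%). Between these, from -8 to -6 and with UMAP_1 above 0, a band called the bridge here held 2328 nuclei (3.83%), and 215 nuclei lay elsewhere. The boundaries of these regions were drawn after the map had been seen, and so no test was made on them.

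The surroundings of the 3 regions differed. The 30 nearest nuclei of other libraries, from up to 1000 nuclei drawn per library, were taken as the neighbors of a nucleus. Nuclei of the core had 99.6% PST neighbors on average, and those of the bridge 99.3%, and none of the neighbors of either were iPT in this draw. In another random draw, 477 core nuclei and 0 bridge nuclei had an iPT neighbor. Nuclei of the tip had 80.4% PST, 13.9% iPT and 5.74% PCT neighbors. Of all nuclei in the area of the bridge, 98.5% were PST, 32 were PCT and 2 were iPT. The 215 nuclei elsewhere had 13.0% iPT and 57.9% PCT neighbors. The border of PST with iPT on this map thus lay mostly at the tip, and the bridge joined the tip to the core within PST.

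**Figure D2:**
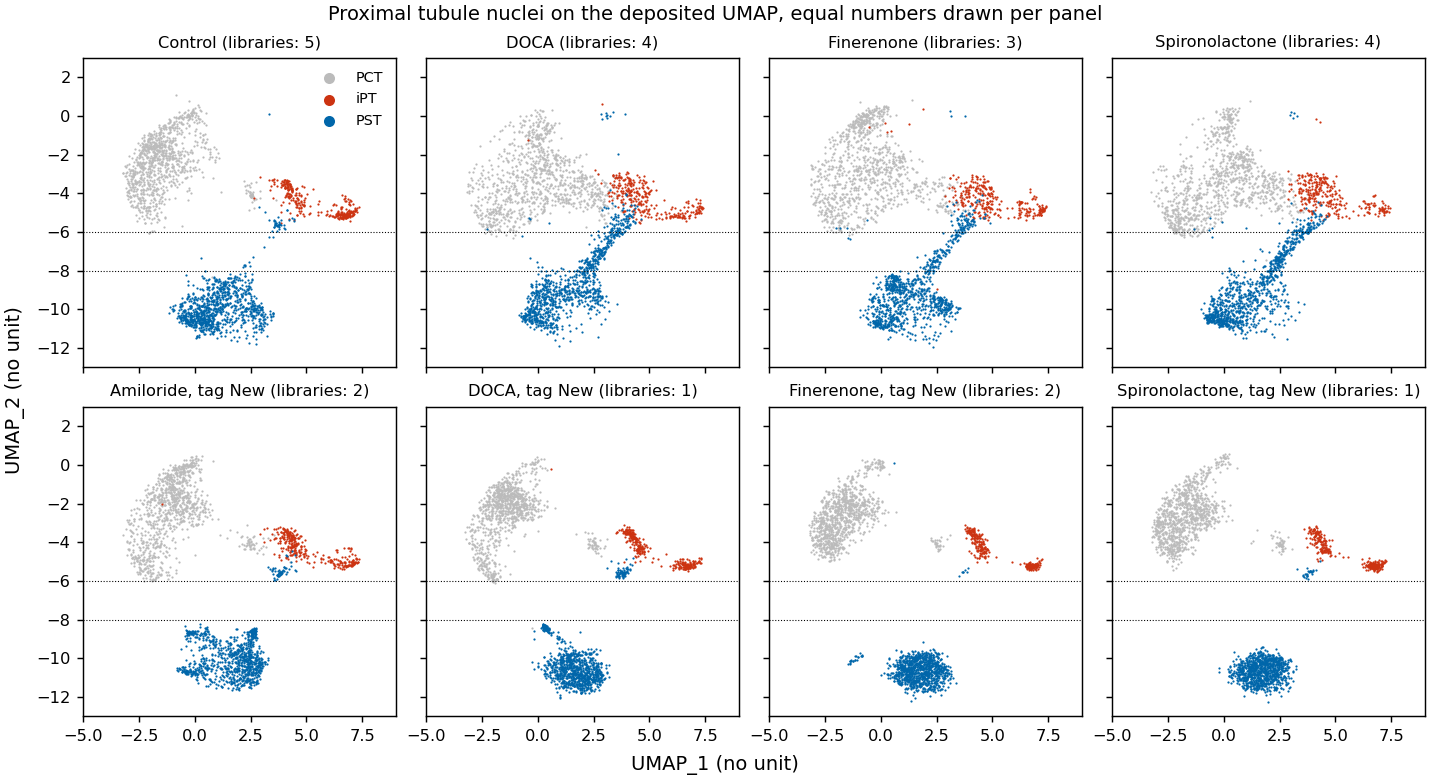
UMAP_1 against UMAP_2 (no unit) for nuclei named PST, PCT and iPT, with 1000 PST, 1000 PCT and 300 iPT nuclei drawn per panel and panels by treatment and by the tag New in the library name. Dotted lines mark UMAP_2 of -8 and -6, between which a band of PST nuclei is seen in the upper panels of DOCA, finerenone and spironolactone and is nearly empty in control and in the lower panels.

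The bridge was nearly empty in control. Its share of PST nuclei in the 5 control libraries was 0%, 0.304%, 0.917%, 1.04% and 1.49%, or 44 of 5257 nuclei in all. In DOCA it was 15.9%, 17.9%, 19.9% and 21.7% in 4 libraries and 0% in the library tagged New. The 4 DOCA libraries without this tag all lay above every control library, and the tagged one had 0 of 1247 nuclei, which allows a share of up to 0.241%. For comparison, the control library with 0 of 207 nuclei allows up to 1.45%.

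With finerenone, the bridge held 8.50%, 9.92% and 12.3% of PST nuclei in the 3 libraries not tagged New. In the 2 tagged ones it held 5 of 30888 nuclei (0.0162%) and 0 of 3344, which allows up to 0.0897%. With spironolactone it held 14.7%, 18.3%, 18.9% and 28.6% in the 4 libraries not tagged New and 0 of 3760 nuclei, allowing up to 0.0798%, in the tagged one. Both amiloride libraries, at 0.100% and 0.162%, were tagged New. Among libraries not tagged New, the 3 finerenone shares lay above all control shares and below all DOCA and spironolactone shares. Against DOCA and spironolactone, this order was not clear of counting error. The 14.7% with spironolactone was 14 of 95 nuclei, and its exact 95% CI, 8.30% to 23.5%, covers all 3 finerenone shares. The CI of the 12.3% finerenone library reached 14.3%, above the lower limit of 12.9% for the DOCA library with 36 of 201 nuclei. The order was not tested, and the split by tag was chosen after seeing the data.

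Over all treatments, the 6 libraries tagged New held 9 bridge nuclei among 42096 PST nuclei, and the other 16 held 2319 among 18737 (12.4%). The bridge was thus occupied in the 11 libraries of DOCA, finerenone and spironolactone without this tag, with 8.50% to 28.6%. In the other 11 libraries it held at most 1.49%. The untagged libraries alone showed the same split of control from DOCA, finerenone and spironolactone, and they are as many by treatment as the samples processed with Cell Ranger 3.0.2, all of which were of 6 weeks. Which libraries were of 3 weeks is not known, so for DOCA and spironolactone the tag New and the time point cannot be told apart. Among the libraries named MO, 1 per treatment, the share was 0.304% in control, 21.7% in DOCA, 9.92% with finerenone, 18.3% with spironolactone and 0.100% with amiloride, of which the last was tagged New.

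**Figure D3:**
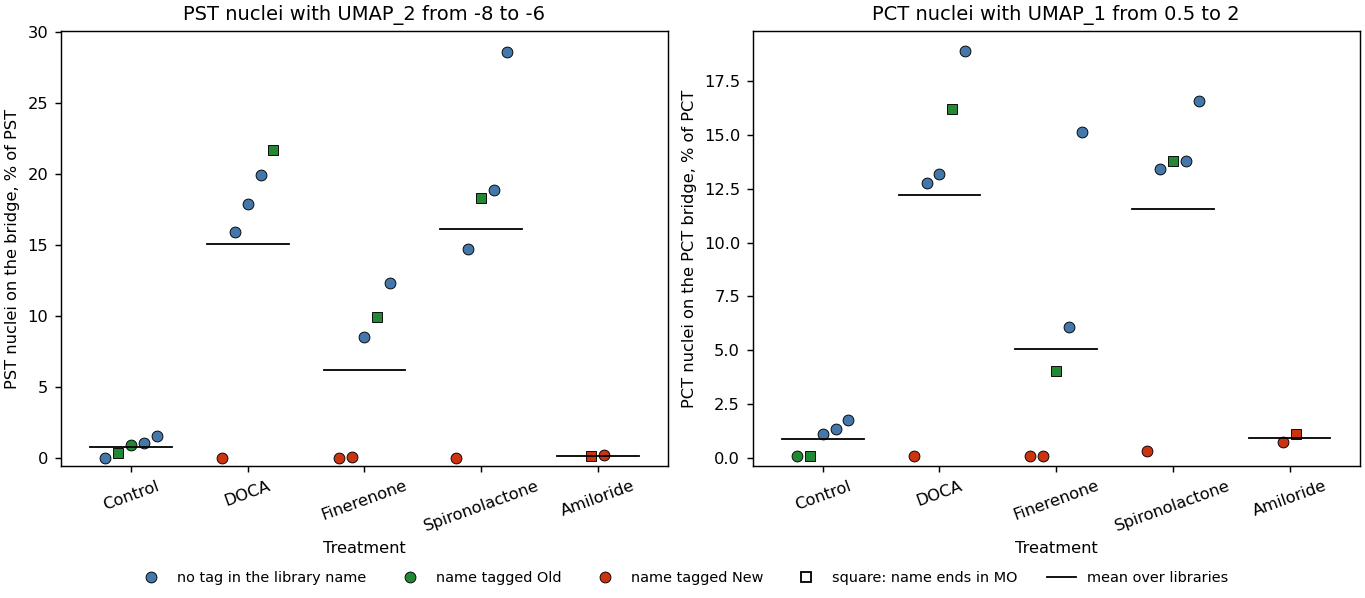
Share of PST nuclei on the bridge (left, % of PST) and of PCT nuclei on the corresponding PCT bridge (right, % of PCT) by treatment, with 1 point per library, colored by name tag, and lines for the mean. In both panels the points tagged New lie near 0 in every treatment, next to control, and the remaining DOCA and spironolactone points lie above 12%.

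The split between these sets of libraries was also seen in PCT nuclei. A band of PCT nuclei led toward iPT on the other side, with UMAP_1 from 0.5 to 2 and UMAP_2 from -6 to -2.5. It held 0.0781% to 1.76% of PCT nuclei in the control libraries and 12.8% to 18.9% in the 4 DOCA libraries not tagged New. It held 4.03%, 6.07% and 15.1% in the finerenone libraries and 13.4% to 16.6% in the spironolactone libraries without that tag. Unlike on the PST bridge, the finerenone library with 15.1% thus lay within the DOCA and spironolactone ranges. In the 6 libraries tagged New it held 0.0505% to 1.08%. These boundaries, too, were drawn after the map had been seen.

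Within the core alone, the median PST nucleus had a UMAP_2 between -10.7 and -10.5 in the 5 libraries tagged New and not named MO, which came from 4 treatments. The tagged amiloride library named MO stood apart from these at -9.00. In the control libraries the core median lay between -10.3 and -9.76. In the DOCA, finerenone and spironolactone libraries without the tag it lay between -10.2 and -8.86, so these overlapped with control. Since Harmony had been used to bring libraries together, these positions are those left after batch correction.

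The tip was present in every library, with 0.392% to 16.7% of PST nuclei. The lowest value was that of the finerenone library of 48403 nuclei, where the tip held 121 nuclei, beside 30759 in the core. In control the tip held 0.689%, 2.90%, 4.85%, 4.87% and 6.24% of PST nuclei. In the DOCA libraries it held 4.48%, 6.90%, 7.45%, 11.4% and 13.3%, of which the DOCA library tagged New had 6.90%. The ranges of control and DOCA overlapped. The DOCA library tagged New thus had a tip share within the DOCA range, just above the highest control value, and an empty bridge. The other libraries tagged New had tip shares of 0.392% to 7.80%.

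**Figure D4:**
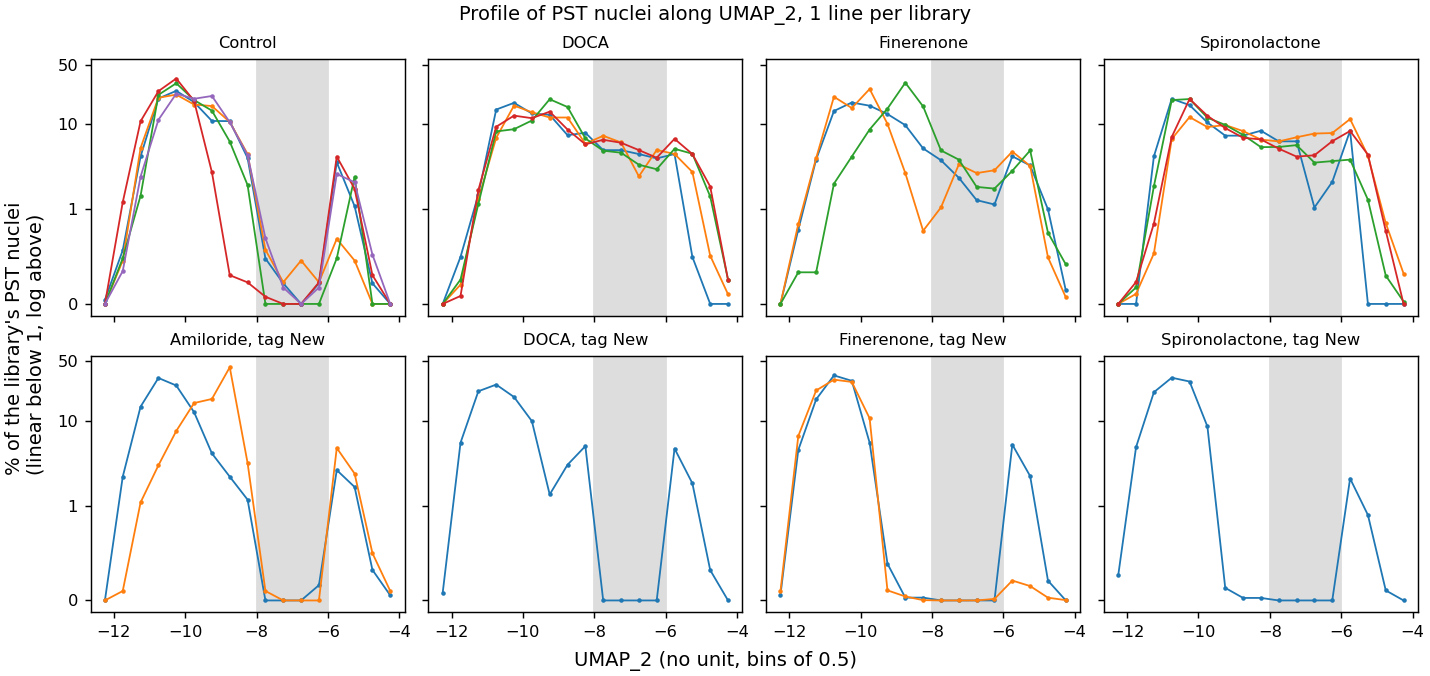
Percentage of a library's PST nuclei (y axis, linear below 1 and logarithmic above) along UMAP_2 (x axis, no unit, bins of 0.5), with 1 line per library, panels by treatment and the tag New, and the bridge from -8 to -6 shaded gray. The lines dip to about 0 in the shaded interval in control and in all libraries tagged New, and rise again at the tip, while the lines of the other DOCA, finerenone and spironolactone libraries stay above 0.

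Most PST nuclei did not touch iPT. Of the 60833 PST nuclei, 59509 had no iPT neighbor in this draw and 728 had at least 10% iPT among their neighbors. In the other draw, 1930 rather than 1324 PST nuclei had an iPT neighbor. Of all PST nuclei, 283 lay within 1 neighbor of this limit. Averaged over the PST nuclei of a library, iPT made up 0.0612%, 0.463%, 0.467%, 0.520% and 0.794% of the neighbors in control. In DOCA it made up 0.249%, 0.607%, 1.89%, 2.36% and 2.74%, so 3 of the 5 DOCA libraries lay above all control libraries. The mean was 0.461% ± 0.262 in control and 1.57% ± 1.09 in DOCA, a difference of 1.11 points (exact permutation test, n = 5 each, p = 0.0952, adjusted p = 0.381). The 2 DOCA libraries inside the control range were the one tagged New, with 0.607%, and the one of 1774 nuclei, with 0.249%.

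With the drugs, the share of iPT among the neighbors of PST nuclei was 1.26% ± 0.894 (finerenone, n = 5), 1.19% ± 1.18 (spironolactone, n = 5) and 0.877% ± 0.176 (amiloride, n = 2). The differences from DOCA were -0.306, -0.376 and -0.691 points (exact permutation tests, adjusted p = 0.611 for each), within the spread between libraries. The finerenone difference was -0.00469 points without the library of 48403 nuclei and 0.0572 points without the libraries tagged New. The direction for amiloride depended on the draw of neighbor nuclei. In another random draw, the amiloride library named MO went from 0.753% to 2.64%, with 336 rather than 48 of its PST nuclei having an iPT neighbor, and the difference from DOCA was 0.255 points. Only 2 iPT nuclei lay as low as the core, below a UMAP_2 of -8. With all nuclei of the other libraries as possible neighbors, the difference was -0.417 points.

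Seen from iPT, the neighbors on the proximal tubule side were PST or PCT. Of the PST and PCT neighbors of iPT nuclei, PST made up 23.5%, 43.1%, 62.0%, 66.7% and 67.0% in the control libraries. In DOCA, PST made up 28.4%, 30.4%, 38.0%, 53.5% and 75.0%, of which the last was tagged New. With finerenone it was 23.3%, 38.4%, 43.0%, 69.9% and 87.2%, and with spironolactone it was 32.1%, 32.8%, 40.6%, 42.0% and 78.3%. The 4 highest values in these 3 groups, 69.9% to 87.2%, were all from libraries tagged New, and the 11 others lay at or below 53.5%. The amiloride libraries, also tagged New, had 33.2% and 47.6%. The ranges of control and of DOCA overlapped, and the part of the tag in these values was not tested.

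**Figure D5:**
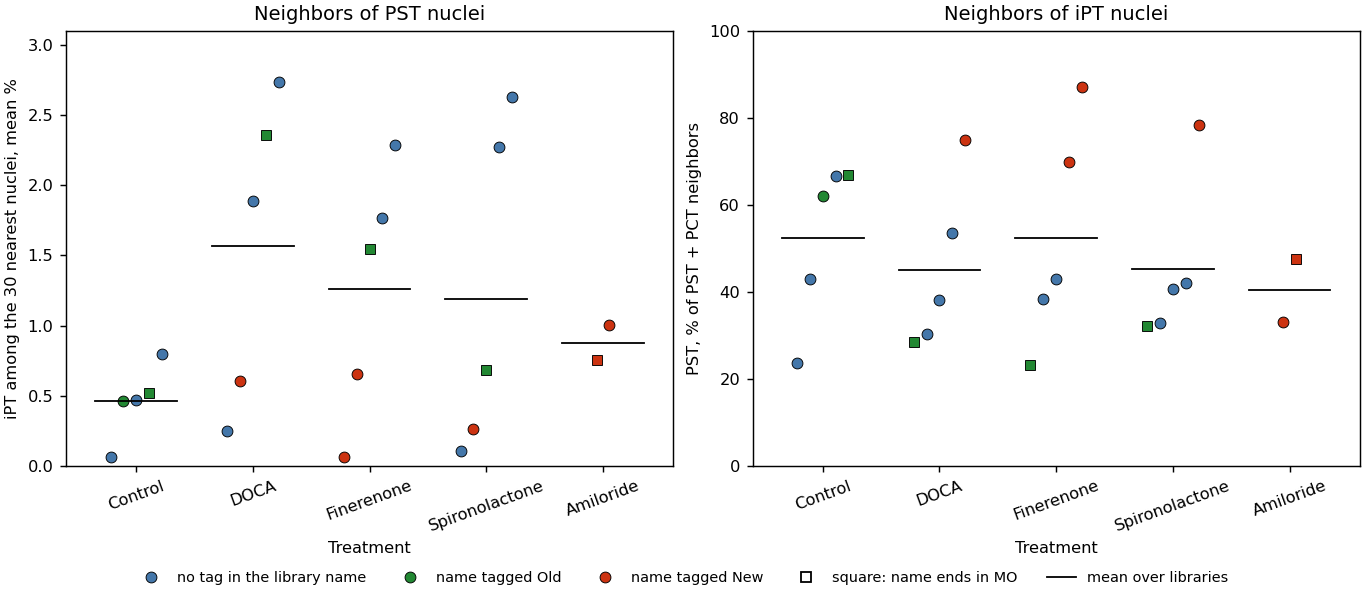
Mean percentage of iPT among the 30 nearest nuclei of PST nuclei (left) and PST as a percentage of the PST and PCT neighbors of iPT nuclei (right) by treatment, with 1 point per library, colored by name tag, and lines for the mean. On the left 3 DOCA libraries lie above all control libraries and 2 lie among them, and on the right the 4 points above 69% in DOCA, finerenone and spironolactone are those tagged New.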

How the data were processed

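For every nucleus, the deposited annotation names its cell type, its treatment and the library it came from. Positions on the deposited UMAP are scores without a unit, as computed by the authors. Per the labels and the methods, the authors aligned reads to rn6 with Cell Ranger (3.0.2 or 6.0.1), counting introns, removed ambient RNA (SoupX) and doublets (DoubletFinder), filtered nuclei by genes and mitochondrial percentage, and integrated libraries with Seurat and Harmony. Gene values and RNA counts were not analysed here, so depth per nucleus is unknown.

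Nuclei were counted per library with Python 3.11.15 and pandas 2.3.3. Treatments were compared over libraries with exact two-sided permutation tests of the difference of means (scipy 1.17.1), with Benjamini-Hochberg adjustment. For fractions, the methods name a chi-square test. Correlations used 100000 permutations. No library was matched to a sample, and only the treatment in the annotation assigned it, so whether libraries are separate rats is not known. Neighbor shares used 30 neighbors from up to 1000 nuclei per other library. Limits for counts of 0 are 3 nuclei of the total. Both tests and neighbor shares were tested on simulated data.

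The members, cell types and tests were chosen with earlier results of these data known. The bridge, the split by the tag New and the averaging of libraries of 1 treatment that share a number in their names (2 control and 2 spironolactone libraries, counted separately otherwise) were chosen after seeing the data. Alternatives covered denominators, scale, weighting, library sets, neighbor settings and each library left out. No gene is named from values.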

Additional observations from a re-analysis of the deposited data

Results flagged for a closer look

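Among 36 groups of 5 libraries examined, 5 had a library far from the others. Chance gives about 1 in 20 for independent measures fixed beforehand, but these measures share libraries, and the regions behind the first 3 values below were drawn after the map had been seen, so these are descriptions only. In DOCA, the bridge held 0% of PST nuclei in the library tagged New, and the next lowest library had 15.9%. In finerenone, the tip held 0.392% of PST nuclei in the library of 48403 nuclei, and the next had 7.69%. In spironolactone, the PCT bridge held 0.312% of PCT nuclei in the library of 33683 nuclei, tagged New, and the next had 13.4%. In the same library, PST made up 78.3% of the PST and PCT neighbors of iPT nuclei, and the next highest library had 42.0%. In control, the median PST nucleus of the library named MO had a UMAP_1 of 2.30, and the next highest had 0.867. Of these 5 values, 4 came from libraries tagged New.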

How the results depend on the processing

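Of 174 values under alternative settings, 7 reversed. No main result had an adjusted p under 0.05, so none could lose it. Pooled nuclei and bridge shares had no p, and none of the alternatives with a p passed after adjustment. Many of these had too few libraries to pass, so this does not show stability. With 3 against 3 untagged libraries, for example, p cannot fall below 0.1 (exact permutation test). With each library left out in turn, the difference in the PST share of PST and PCT nuclei ranged from -10.2 to -4.18 points for DOCA against control, from 6.45 to 21.2 for finerenone, from 5.85 to 12.2 for spironolactone and from -2.54 to 9.21 for amiloride, each against DOCA. The control comparison gave -4.18 without the control library of 1238 nuclei. The finerenone value of 6.45 was without the library of 48403 nuclei, the spironolactone value of 5.85 without that of 33683 nuclei and the amiloride value of -2.54 without the library of 11144 nuclei. The difference in iPT neighbors of PST ranged from 0.815 to 1.44, from -0.636 to -0.00469, from -0.736 to -0.0847 and from -1.02 to -0.399 points in the same order. It reversed for amiloride in another random draw (0.255) and for finerenone without libraries tagged New (0.0572). The relation of the PST share to the log10 number of nuclei reversed without the library of 48403 nuclei (r = -0.122) and in untagged libraries (-0.229), that to the podocyte share in untagged libraries (-0.243) and that to the iPT share without the 2 farthest libraries (0.0396). The cause was not tested. For DOCA against control, the PST share differed by -10.8 points without the libraries named MO (p = 0.0286, adjusted p = 0.114, exact permutation test). When the 2 control libraries sharing a number were averaged, it differed by -7.17 points (p = 0.0159, adjusted p = 0.0635, exact permutation test). In both cases all control values lay above all DOCA values, whereas with all libraries they overlapped and p was 0.103 (exact permutation test). The number shared by the 2 control libraries also occurs in the name of an amiloride library, so it need not mean the same rat. With the 2 spironolactone libraries sharing a number averaged, spironolactone differed from DOCA by 9.02 points (adjusted p = 0.127, exact permutation test). In a narrower interval, the median bridge share of PST nuclei went from 0.917% to 0.174% in control, from 17.9% to 8.27% in DOCA, from 8.50% to 3.64% with finerenone, from 18.3% to 8.28% with spironolactone and from 0.131% to 0% with amiloride, so all 5 moved by over 1.5 times. No paired analysis was possible because the library names carry no replicate number of the labels. The number of libraries limits the precision, and the smallest library, of 759 nuclei, held 95 PST nuclei.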
